A study of Mus musculus with 16 samples.

Results

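The genes described here are a set of mouse genes known for restraining proliferation: Btg1, Btg2, Btg3, Tob1 and Tob2 of the BTG/TOB family, the Schlafen genes Slfn1, Slfn2 and Slfn5, and Tsc22d3, which encodes the glucocorticoid-induced leucine zipper GILZ. They were selected by gene symbol, which matched 9 of the 54532 genes in the count table, each to a single row, and the selection rule used no measured value. Expression was measured by poly(A) RNA-seq in 16 libraries of TCF1+CD8+ T cells, made over 4 days in culture from naive CD8+ T cells of C57BL/6J mouse spleen by repeated activation. Cells were left without prostaglandin E2 (PGE2) or given 100 ng/ml of it for 1 h, and were then kept for 4 h in 85 U/ml IL-2 alone (unstimulated cells) or in the same IL-2 with aCD3/CD28 beads at 1 bead per cell (stimulated cells). This gave 4 groups of 4 replicates, in which every group had received IL-2, and the comparisons ask how PGE2 changes these genes in each state and how stimulation changes them with and without PGE2. The cells are an in vitro product of spleen T cells and not T cells taken from a tumour.

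BTG and TOB proteins share a domain that binds the CAF1 deadenylases of the CCR4-NOT complex, and through it they promote shortening of poly(A) tails and decay of mRNA. In T cells, Btg1 and Btg2 are known for keeping naive cells quiescent and Tob1 for raising the threshold of activation. Schlafen proteins are linked to quiescence and to interferon responses: Slfn1 was named for blocking thymocyte growth, loss of Slfn2 makes T cells leave quiescence, and Slfn5 is induced by type I interferon. GILZ is a leucine zipper protein transcribed under glucocorticoid receptor and FOXO factors, and it lowers T cell activation signals.

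Library totals ran from 22678254 to 42950763 counts with a median of 30211840.5. CPM values below are counts scaled to library size with TMM factors over all 16 libraries, and mean values carry the SD over the 4 replicates of a group. Transcripts of the 5 CD8+ T cell markers summed to between 2121 and 3967 CPM, and Tcf7, which encodes TCF1, ran from 289 to 1540 CPM. B cell markers summed to at most 5.37 CPM, myeloid markers to at most 0.470 CPM and the CD4+ T cell markers to at most 9.52 CPM, while the NK cell marker Ncr1 was at 0 in every library. Every member had counts in every library, the fewest being 19 for Slfn5, and all 9 passed the filter on low counts in every comparison. In bulk RNA, fewer cells that express a gene and less RNA per cell cannot be told apart.

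PGE2 signals through cAMP in T cells, so the promoters of the members were searched for the cAMP response element TGACGTCA and its first 5 letters, TGACG, on both strands. The RefSeq table for GRCm38.p6 held 12 promoters of 300 bases for the 9 genes, each from 250 bases before to 50 bases after the transcription start. The whole element was found in Btg2 alone among the members and in 1.79% of all 32851 promoters in the table. The letters TGACG, which the whole element also contains, were found in 5 members, Btg1, Btg2, Tob1, Slfn1 and Tsc22d3, and in 20.8% of all promoters. Counted per gene, with a match in any of its promoters, they were in 36% of the 9273 tested protein-coding genes for which the table had a promoter. A match is thus common among expressed genes, but a share per gene cannot be set against the share per promoter. That table covered 78.8% of the tested protein-coding genes, under the 80% set as a minimum, so no comparison between genes called and not called was made. The 5 promoters are shown 5′ to 3′ along the gene, with each match to a searched motif on either strand in capitals. They lie at chr10:96616751-96617050 (+, Btg1), chr1:134079106-134079405 (−, Btg2), chr11:94211204-94211503 (+, Tob1), chr11:83116570-83116869 (+, Slfn1) and chrX:140548522-140548821 (−, 1 of 3 Tsc22d3 promoters).
Btg1: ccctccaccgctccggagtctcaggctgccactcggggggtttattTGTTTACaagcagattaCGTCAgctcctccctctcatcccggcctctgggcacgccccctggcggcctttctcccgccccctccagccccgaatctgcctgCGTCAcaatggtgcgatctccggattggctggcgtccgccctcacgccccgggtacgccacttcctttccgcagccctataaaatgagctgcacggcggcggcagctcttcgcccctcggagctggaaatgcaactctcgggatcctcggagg
Btg2: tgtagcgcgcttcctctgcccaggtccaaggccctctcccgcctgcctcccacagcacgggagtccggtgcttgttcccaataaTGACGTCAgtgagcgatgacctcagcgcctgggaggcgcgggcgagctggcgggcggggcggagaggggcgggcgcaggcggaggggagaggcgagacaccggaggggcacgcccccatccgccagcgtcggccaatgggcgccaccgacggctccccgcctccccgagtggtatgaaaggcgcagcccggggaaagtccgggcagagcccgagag
Tob1: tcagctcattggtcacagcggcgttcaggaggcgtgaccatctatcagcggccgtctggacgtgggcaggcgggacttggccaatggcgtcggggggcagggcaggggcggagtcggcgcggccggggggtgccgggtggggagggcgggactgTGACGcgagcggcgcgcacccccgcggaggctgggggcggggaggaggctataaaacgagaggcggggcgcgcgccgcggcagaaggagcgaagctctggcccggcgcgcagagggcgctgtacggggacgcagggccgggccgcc
Slfn1: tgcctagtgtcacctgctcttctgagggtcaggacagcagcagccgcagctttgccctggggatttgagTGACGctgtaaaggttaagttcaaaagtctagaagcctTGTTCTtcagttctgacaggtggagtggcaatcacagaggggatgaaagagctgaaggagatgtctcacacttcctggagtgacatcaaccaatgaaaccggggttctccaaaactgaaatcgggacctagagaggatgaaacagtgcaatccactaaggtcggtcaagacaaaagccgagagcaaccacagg
Tsc22d3: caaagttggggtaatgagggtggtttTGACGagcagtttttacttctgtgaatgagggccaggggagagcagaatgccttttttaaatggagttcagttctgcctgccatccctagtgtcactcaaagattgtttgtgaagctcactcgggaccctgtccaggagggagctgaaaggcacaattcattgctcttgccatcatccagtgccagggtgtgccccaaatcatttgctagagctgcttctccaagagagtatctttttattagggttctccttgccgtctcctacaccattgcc

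In Btg2 the whole element lay 166 to 159 bases before the start. Btg1 held TGACG, read on the other strand, 187 to 183 and 103 to 99 bases before its start. The same Btg1 promoter held the only member match to the FOXO site GTAAACA, 204 to 198 bases before the start, a motif in 3.65% of all promoters. Tob1 had its match 96 to 92 bases before the start, Slfn1 181 to 177 and Tsc22d3 224 to 220. The letters GAAANNGAA of the interferon-stimulated response element were found in Slfn5 alone among the members (chr11:82951852-82952151, +, 2 matches) and in 8.56% of all promoters. AGAACA, which is 1 side of a glucocorticoid response element, was found in Slfn1, 143 to 138 bases before the start, in another of the Tsc22d3 promoters (chrX:140600473-140600772, −) and in 19% of all promoters. These are matches of letters, and no binding was measured.

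Expressed per transcript length, the members spanned a wide range. Slfn2 had the highest FPKM of the 9 in each of the 4 groups, from 156 ± 23.4 in unstimulated cells without PGE2 to 281 ± 70.5 in stimulated cells without PGE2, and Slfn5 had the lowest, at 0.150 ± 0.0295 and 0.631 ± 0.189 FPKM in the same groups. In unstimulated cells without PGE2 the order below Slfn2 was Slfn1 (84.7 ± 10.4 FPKM), Btg2 (60.3 ± 6.00), Btg1 (55.5 ± 9.96), Tsc22d3 (26.5 ± 2.54), Tob1 (9.94 ± 0.618), Tob2 (7.98 ± 0.541) and Btg3 (4.58 ± 0.250). Among neighbours in that order, Btg2 and Btg1 alone had overlapping replicate values. In stimulated cells without PGE2, Btg1 stood next to Slfn2 at 81.3 ± 12.1 FPKM, Btg3 had passed Tob2 and Tob1 at 19.9 ± 3.80 FPKM, and Tsc22d3 had dropped to the eighth place at 3.80 ± 1.06 FPKM. Replicate values overlapped there between Btg1 and Slfn1 and between Tob1 and Tsc22d3. Btg2 was thus within the spread of Btg1 before stimulation and below it after, at 52.5 ± 1.33 FPKM.

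**Figure D1:**
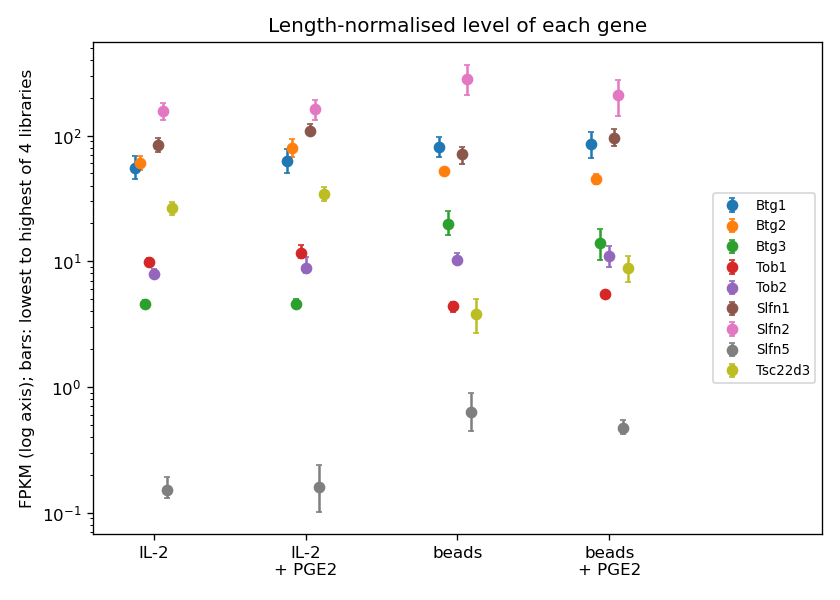
Length-normalised level (FPKM, log axis) of each member in the 4 groups, where points are means of 4 libraries and bars run from the lowest to the highest library. Slfn2 is at the top and Slfn5 at the bottom of every group, while Tsc22d3 drops and Btg3 climbs between IL-2 alone and beads.

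Btg2, an immediate-early and p53-inducible gene, responded to PGE2 differently in the 2 states. In unstimulated cells its values were 196, 173, 172 and 155 CPM without PGE2 (replicates 1 to 4) and 266, 230.1, 215 and 192 CPM with it. In stimulated cells they were 151, 144, 156 and 155 CPM without PGE2 and 139, 119, 135 and 132 CPM with it. Btg2 was thus higher with PGE2 in 4 of 4 same-numbered replicates of unstimulated cells and lower in 4 of 4 of stimulated cells, and the groups did not overlap in stimulated cells but met at 1 high control replicate in unstimulated cells. The log2 fold change was 0.40 (SE 0.09, adjusted p = 0.00778, edgeR quasi-likelihood test) in unstimulated cells, a 1.32-fold rise, and -0.20 (SE 0.07, adjusted p = 0.0930) in stimulated cells. The difference between these responses, tested as an interaction over all 16 libraries, was -0.58 (SE 0.13, adjusted p = 0.0415). In this fit Btg2 was the only member with such a call, in an interaction test that called 0.517% of 15096 genes toward higher and 0.232% toward lower values. That call is close to the threshold: it held without 4 of the 16 libraries left out in turn (IL-2 replicate 1, IL-2 with PGE2 replicate 4, and beads with PGE2 replicates 1 and 4), and the adjusted p ran from 0.0139 to 0.111 while the difference stayed between -0.66 and -0.50. With the replicate number as a block, Btg2 (-0.58, SE 0.10, adjusted p = 0.00602) and Slfn2 were called in the interaction, where 270 genes were called higher and 138 lower. Btg2 was correspondingly 1.70-fold lower in stimulated than in unstimulated cells when PGE2 was present (-0.77, SE 0.10, adjusted p = 4.44e-05), against 1.16-fold without it (-0.21, SE 0.07, adjusted p = 0.0235).

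**Figure D2:**
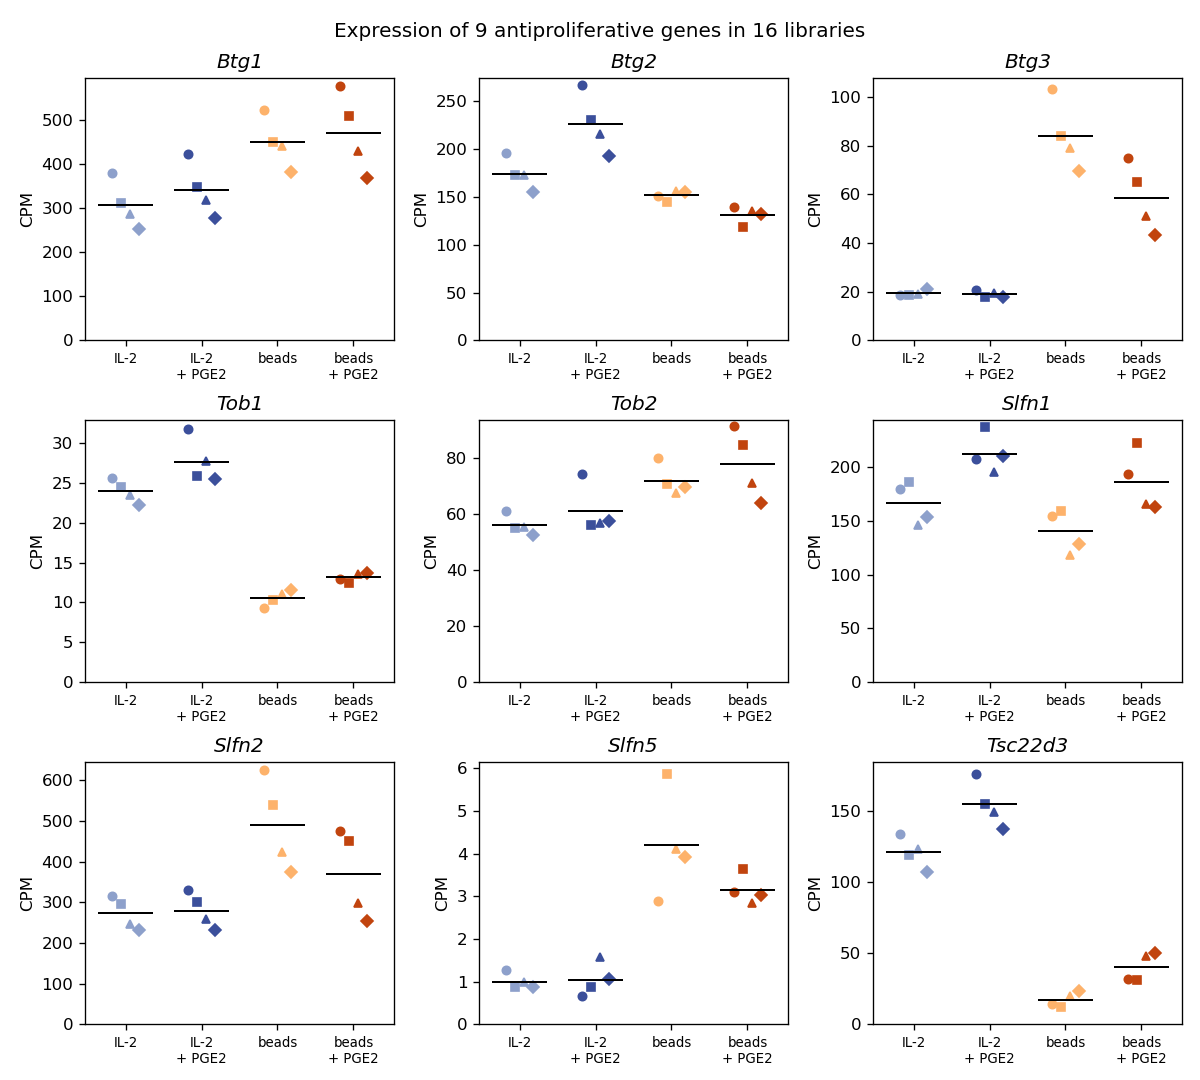
TMM-scaled CPM of each member in every library, with 1 panel per gene and a linear axis from 0. Circle, square, triangle and diamond are replicates 1 to 4 and the black line is the mean. Btg2 is raised by PGE2 in IL-2 and not with beads, whereas Tsc22d3 is raised by PGE2 in both and is far lower with beads.

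Tsc22d3 showed the widest range of the members. In the fit without a replicate block it was the only one that passed the test for PGE2 in stimulated cells, whereas 6 members passed with the block. It held 134, 119, 124 and 107 CPM in unstimulated cells and 176, 156, 149.8 and 138 CPM in unstimulated cells with PGE2. Stimulation left 14.1, 12.2, 19.9 and 23.5 CPM, and stimulation after PGE2 left 32.2, 31.2, 48.5 and 50.3 CPM. The 4 groups did not overlap, and every stimulated library lay below every unstimulated one. Stimulation lowered Tsc22d3 7.08-fold without PGE2 (-2.82, SE 0.16, adjusted p = 3.50e-08) and 3.79-fold with it (-1.92, SE 0.15, adjusted p = 2.68e-06). PGE2 raised it 2.34-fold in stimulated cells (1.23, SE 0.23, adjusted p = 0.00967) and 1.30-fold in unstimulated cells (0.37, SE 0.08, adjusted p = 0.00494). The difference between those rises was 0.87 (SE 0.25, adjusted p = 0.163) and did not pass the test in the quasi-likelihood fit, although it did with DESeq2 (adjusted p = 0.0388) and with no filter on low counts (adjusted p = 0.0404). With PGE2, stimulated cells thus held 40.5 ± 10.3 CPM of Tsc22d3, still below the 121 ± 11.3 CPM of unstimulated cells that had seen no PGE2.

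Considered together, 1 of the 9 members passed the test for PGE2 in stimulated cells, where 6.04% of 13922 tested genes were called higher and 3.8% lower. With a fold change of at least 2 the count was the same, Tsc22d3, against 1.75% of genes. In 4 members (Btg2, Tob1, Slfn1 and Tsc22d3) the replicates with and without PGE2 did not overlap, as was so for 17.9% of genes. Replicates with the same number deviated together in this comparison, except replicate 2 (correlation 0.190, against up to 0.247 with another number). With the replicate number as a block 6 of 9 members were called, 3 higher and 3 lower, where the block called 19.1% of genes higher and 20.7% lower. The higher members were Tsc22d3 (1.23, adjusted p = 2.89e-07), Slfn1 (0.42, adjusted p = 5.33e-05) and Tob1 (0.33, adjusted p = 0.00566), and the lower ones Btg3 (-0.52, adjusted p = 6.84e-05), Slfn2 (-0.42, adjusted p = 0.000232) and Btg2 (-0.20, adjusted p = 0.00454). Without the block, Slfn1 had an adjusted p of 0.0599, Tob1 of 0.0687, Btg3 of 0.0872 and Slfn2 of 0.261. The median log2 change of the 9 members was 0.08 and that of all tested genes -0.01.

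In unstimulated cells 4 of 9 members were called for PGE2, all of them higher, in a test that called 12.9% of 14505 genes higher and 15.5% lower. These were Btg2, Slfn1, Tsc22d3 and Tob1. None reached a fold change of at least 2, which 3.38% of genes did, and the replicates with and without PGE2 stood apart for 2 of them, Slfn1 and Tsc22d3, against 28.9% of genes. With the replicate block, Btg1 (0.17, adjusted p = 0.000622) and Tob2 (0.14, adjusted p = 0.0150) were called as well, which made 6 members higher and 0 lower, against 23.6% and 24.2% of genes. The 2 PGE2 comparisons shared no library. Same-numbered libraries of the 2 states without PGE2 deviated together, however (correlations of 0.112 to 0.359), so the comparisons are not taken as independent. The median log2 change was 0.17 over the members and -0.001 over all genes.

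**Figure D3:**
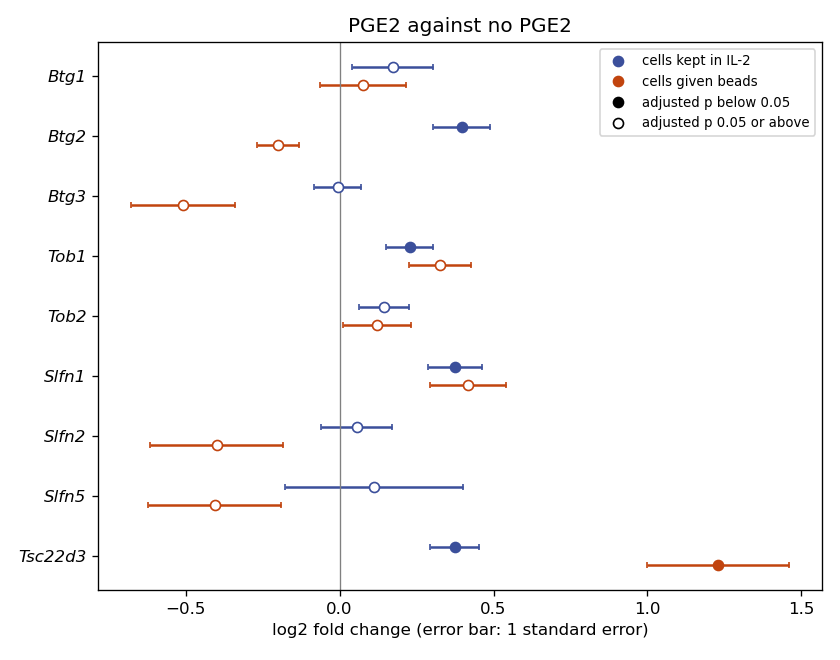
Log2 fold change of each member with PGE2 against no PGE2, in unstimulated cells (blue, IL-2) and stimulated cells (red, beads), with bars of 1 standard error. Filled points passed the edgeR test without a replicate block. Btg2 lies on opposite sides of 0 in the 2 states, and Tsc22d3 in stimulated cells lies farthest to the right.

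Slfn1 was higher with PGE2 in every same-numbered pair of libraries of both states. Its values went from 179.7, 186, 146 and 153 CPM to 207, 237, 195 and 209.6 CPM in unstimulated cells, and from 154, 159, 119 and 128 CPM to 193, 222, 166 and 163 CPM in stimulated cells. PGE2 libraries lay above those without it in both states, with no overlap. The log2 changes were 0.38 (SE 0.09, adjusted p = 0.00795) and 0.42 (SE 0.12, adjusted p = 0.0599), and their difference was 0.06 (SE 0.16, adjusted p = 0.977). Stimulation itself moved Slfn1 by -0.26 (SE 0.11, adjusted p = 0.0604) without PGE2 and by -0.17 (SE 0.11, adjusted p = 0.192) with it, and with the replicate block the first of these was called (-0.26, adjusted p = 0.00139).

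Slfn2, which holds T cells in quiescence and shields tRNA from cleavage under stress, rose with stimulation. It held 316, 296, 246 and 233 CPM in unstimulated cells and 625, 539, 423 and 376 CPM in stimulated cells without PGE2, a 1.79-fold rise with no overlap (0.84, SE 0.16, adjusted p = 0.000399). With PGE2 the values were 329, 301, 258 and 231 CPM unstimulated and 476, 451, 298 and 254 CPM stimulated. These 2 groups overlapped, and the change of 0.42 (SE 0.20, adjusted p = 0.0820) did not pass the test. It passed without beads with PGE2 replicate 4 (adjusted p = 0.0103) and with the replicate block (adjusted p = 0.0142). The spread between replicates was wide in the stimulated groups, replicates 1 and 2 being above 3 and 4, and the interaction of -0.45 (SE 0.27) had an adjusted p of 0.711. With the replicate block the interaction was called (-0.46, SE 0.10, adjusted p = 0.0267).

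Slfn5, an interferon-induced member, had the fewest counts of the members. It held 0.866 to 1.28 CPM in unstimulated cells, 0.668 to 1.57 CPM with PGE2, 2.89 to 5.88 CPM after stimulation and 2.85 to 3.64 CPM after PGE2 and stimulation. Stimulation raised it 4.17-fold without PGE2 (2.06, SE 0.24, adjusted p = 8.75e-06) and 3.00-fold with PGE2 (1.59, SE 0.25, adjusted p = 0.000247), with no overlap in either case. PGE2 changed it by -0.41 (SE 0.22, adjusted p = 0.251) in stimulated and 0.11 (SE 0.29, adjusted p = 0.822) in unstimulated cells. These values rest on 19 to 160 counts per library.

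Btg3, a BTG member induced by DNA damage and able to bind E2F1, was the member most raised by stimulation. It was at 18.7, 18.7, 18.9 and 21.0 CPM in unstimulated cells, at 20.8, 17.9, 19.4 and 17.9 CPM with PGE2, at 103, 83.8, 78.9 and 69.5 CPM in stimulated cells and at 74.8, 65.2, 51.2 and 43.4 CPM in stimulated cells with PGE2. The rise was 4.31-fold without PGE2 (2.11, SE 0.12, adjusted p = 3.03e-08) and 3.13-fold with it (1.65, SE 0.16, adjusted p = 8.36e-06). PGE2 left Btg3 within the replicate spread in unstimulated cells (-0.01, SE 0.08, adjusted p = 0.963). In stimulated cells each replicate with PGE2 lay below the replicate of the same number without it, by -0.51 (SE 0.17, adjusted p = 0.0872), a change that passed without beads with PGE2 replicate 1 (-0.65, adjusted p = 0.0297). Exons of Btg3 share 695 bases with those of Cxadr on the opposite strand, which had 18 to 63 counts per library against 424 to 3904 for Btg3.

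Tob1, a brake on T cell activation, fell with stimulation. Unstimulated cells held 25.5, 24.4, 23.5 and 22.3 CPM, and with PGE2 31.7, 25.8, 27.7 and 25.4 CPM. Stimulated cells held 9.32, 10.3, 11.1 and 11.6 CPM, and with PGE2 12.9, 12.4, 13.6 and 13.7 CPM, so stimulated and unstimulated libraries were fully apart. Stimulation lowered Tob1 2.29-fold without PGE2 (-1.20, SE 0.09, adjusted p = 1.89e-07) and 2.07-fold with it (-1.05, SE 0.09, adjusted p = 3.58e-06). PGE2 raised it by 0.23 (SE 0.08, adjusted p = 0.0473) in unstimulated cells. This call was lost when any 1 of IL-2 replicates 2, 3 and 4 or IL-2 with PGE2 replicates 1, 2 and 3 was left out (adjusted p up to 0.118). Tob1 was higher with PGE2 in 4 of 4 same-numbered pairs there, and the call was kept with the replicate block (0.22, SE 0.06, adjusted p = 0.00358). In stimulated cells the difference was 0.33 (SE 0.10, adjusted p = 0.0687).

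Tob2, its paralogue, moved the other way on stimulation and by less. It rose from 61.0, 55.0, 55.3 and 52.5 CPM to 79.7, 70.5, 67.4 and 69.5 CPM without PGE2, which was 1.27-fold (0.35, SE 0.08, adjusted p = 0.00172) with no overlap. With PGE2 it went from 74.1, 56.0, 56.9 and 57.3 CPM to 91.3, 84.6, 71.0 and 63.9 CPM (0.37, SE 0.13, adjusted p = 0.0269), groups that overlapped. That call was lost without IL-2 with PGE2 replicates 2, 3 or 4 or beads with PGE2 replicates 1 or 2 (adjusted p up to 0.107). PGE2 gave 0.14 (SE 0.08, adjusted p = 0.227) in unstimulated and 0.12 (SE 0.11, adjusted p = 0.489) in stimulated cells. In unstimulated cells Tob2 was higher with PGE2 in 4 of 4 same-numbered pairs, and with the replicate block the change was called (SE 0.043, adjusted p = 0.0150). The blocked fit includes replicate 1 with PGE2, at 74.1 CPM against 56.0 to 57.3 CPM in the other replicates.

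Btg1, which with Btg2 maintains naive T cell quiescence, rose with stimulation while Btg2 fell. Its values were 380.2, 312, 287 and 252 CPM in unstimulated cells and 525, 451, 442 and 384 CPM in stimulated cells, a 1.45-fold rise with no overlap (0.54, SE 0.13, adjusted p = 0.00225). With PGE2 they were 424, 349, 319 and 277 CPM unstimulated and 579, 509, 431 and 369 CPM stimulated, a 1.40-fold rise with overlap (0.48, SE 0.16, adjusted p = 0.0179). The second call was lost without IL-2 with PGE2 replicates 3 or 4 or beads with PGE2 replicate 2 (adjusted p up to 0.0687). PGE2 moved Btg1 by 0.17 (SE 0.13, adjusted p = 0.376) in unstimulated and 0.08 (SE 0.14, adjusted p = 0.752) in stimulated cells.

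Stimulation without PGE2 called 8 of 9 members, 5 higher (Btg1, Btg3, Tob2, Slfn2 and Slfn5) and 3 lower (Btg2, Tob1 and Tsc22d3), where 31.7% of 14205 genes were called higher and 34.8% lower. The fall of Btg2 was lost without IL-2 replicate 1 or beads replicate 2 (adjusted p up to 0.0710). With the replicate block all 9 were called, Slfn1 joining the lower ones, against 34.8% of genes higher and 37.5% lower. With PGE2 present 7 of 9 were called, 4 higher (Btg1, Btg3, Tob2 and Slfn5) and the same 3 lower, against 32.5% and 31.7% of 14507 genes. A fold change of at least 2 was reached by Btg3, Slfn5, Tob1 and Tsc22d3 in both comparisons, 4 of 9 members against 23.2% of genes without PGE2 and 22.1% with it. The members thus did not move as a group: the median log2 change was 0.35 without PGE2 and 0.37 with it, and both BTG/TOB and Schlafen genes were found on both sides of 0.

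**Figure D4:**
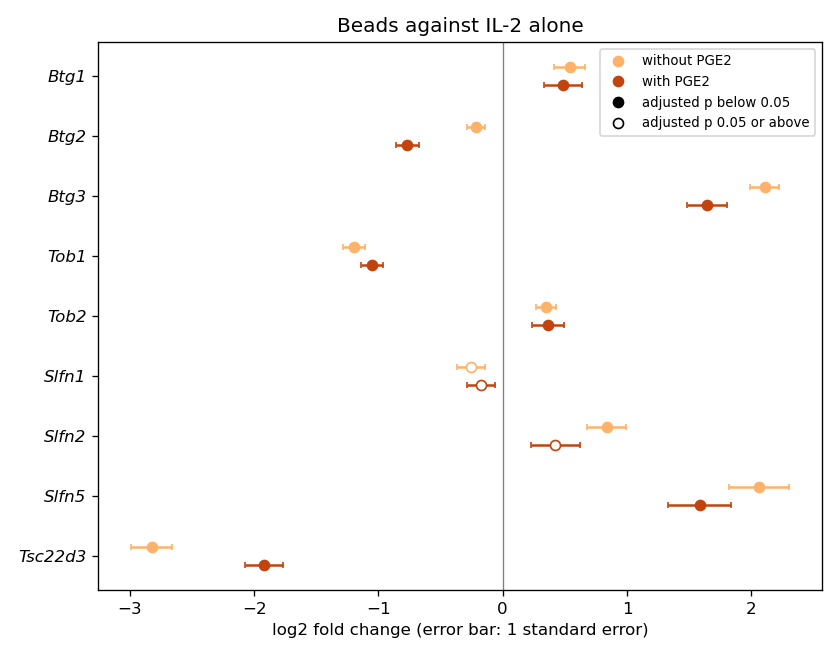
Log2 fold change of each member in stimulated against unstimulated cells, without PGE2 (light) and with PGE2 (dark), with bars of 1 standard error and filled points for calls. Btg3 and Slfn5 lie farthest to the right and Tsc22d3 farthest to the left, with Tob1 next.

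The genes whose pattern over the 16 libraries was closest to a member were found among the other genes that averaged 10 CPM or more, by the root mean square (rms) difference of centred log2 CPM. For Tsc22d3 they were Klhl24 (rms 0.10), Cdkn1b, the CDK inhibitor p27 (0.13), and Ctdsp2 (0.18), against an rms of 1.31 for the swings of Tsc22d3 itself. For Btg3 they were Lcp2 (0.13), which encodes the T cell receptor adaptor SLP-76, the MAP kinase phosphatase gene Dusp2 (0.14) and the NF-kB subunit gene Rel (0.15). Slfn1 was closest to Gimap8 (0.12), Gbp9 (0.13) and Parp9 (0.14), both Gbp9 and Parp9 being interferon-inducible, and Btg2 to Igf2r (0.10), Tapt1 (0.12) and Zfand2a (0.12). Tob1 had Numa1 (0.07), Cep350 (0.08) and Hsdl1 (0.08), and Tob2 had Man1a (0.08), Ndel1 (0.08) and Usb1 (0.09). Slfn2 was closest to Vsir (0.12), which encodes the checkpoint protein VISTA, Trp53rka (0.13) and Zfp36l1 (0.15), and Slfn5 to Ptprs (0.30), Gm2237 (0.31) and Tbkbp1 (0.32). Among the members themselves the closest pair was Btg1 and Tob2 (rms 0.14).

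Genes of the CCR4-NOT complex, other deadenylase genes, and genes of poly(A)-binding proteins and their regulators were mostly not called for PGE2. Of 19 such genes, 2 were called higher and 1 lower in unstimulated cells and 1 higher in stimulated cells. Paip2, an inhibitor of poly(A)-binding protein, rose with PGE2 in both (0.40, SE 0.07, adjusted p = 0.00144 and 0.48, SE 0.10, adjusted p = 0.0205), and Tnks1bp1 rose (0.30, adjusted p = 0.0436) and the poly(A)-binding protein gene Pabpc4 fell (-0.36, adjusted p = 0.00115) in unstimulated cells. Stimulation called 5 higher and 7 lower without PGE2 and 6 higher and 7 lower with it, with Paip2 falling by 1.01 and Pabpc4 rising by 0.96 on the log2 scale without PGE2. The median change of the list was between -0.05 and -0.005 in these 4 comparisons, and that of all genes between -0.03 and 0.002. Calls for this list and those below are from the fits without the replicate block. In these fits 12.9% of all genes were called higher and 15.5% lower with PGE2 in unstimulated cells. The shares were 6.04% and 3.8% with PGE2 in stimulated cells. For stimulation they were 31.7% and 34.8% without PGE2 and 32.5% and 31.7% with it.

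Of 11 other BTG, Schlafen and TSC22 family genes, 7 were tested, and Btg4, Slfn4, Slfn14 and Slfnl1 had at most 15 counts in any library. Tsc22d1, a paralogue of Tsc22d3, rose with PGE2 from 15.9 ± 2.42 to 25.7 ± 0.516 CPM in unstimulated cells (0.71, SE 0.10, adjusted p = 0.000311) and from 15.2 ± 2.11 to 24.2 ± 1.88 CPM in stimulated cells (0.68, SE 0.12, adjusted p = 0.00629). With stimulation Tsc22d1 differed by -0.08 (adjusted p = 0.591) without PGE2. Slfn8 rose with PGE2 in unstimulated cells (0.33, SE 0.09, adjusted p = 0.0145). Called counts were 2 higher in unstimulated and 1 higher in stimulated cells for PGE2, and 3 higher with 1 lower and 2 higher with 1 lower for stimulation without and with PGE2. Schlafen genes form a cluster on chromosome 11 and share sequence, so reads common to several of them could have been assigned or left out in counting in a way not given in the sources used here.

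Most of the listed genes known to be induced by glucocorticoid or FOXO, as Tsc22d3 is, fell with stimulation, and part of them rose with PGE2. Of 17 tested, 13 were called lower and 3 higher after stimulation without PGE2 (median -1.40) and 14 lower and 2 higher with PGE2 (median -0.88). The 3 called higher without PGE2 were Klf9 (1.44), Per1 (0.40) and Fkbp5 (0.26), against -2.82 for Tsc22d3. PGE2 in stimulated cells called 8 higher and 1 lower, with a median of 0.34 against -0.01 over all genes. The largest rises there were of S1pr1, the sphingosine 1-phosphate receptor of lymphocyte egress, from 29.2 ± 4.80 to 61.9 ± 4.16 CPM (1.09, SE 0.11, adjusted p = 0.000360) and of Sesn3, a FOXO target, from 85.1 ± 13.9 to 178 ± 25.9 CPM (1.07, SE 0.13, adjusted p = 0.00128). In unstimulated cells 5 were called higher and 1 lower, led by Per1 (0.51, SE 0.05, adjusted p = 5.32e-05) and Sesn3 (0.47, SE 0.05, adjusted p = 5.81e-05). The only listed gene called lower with PGE2, in both states, was Fkbp5, a classical glucocorticoid receptor target. It fell by 0.42 on the log2 scale in unstimulated cells (adjusted p = 0.000310) and by 0.32 in stimulated cells (adjusted p = 0.00809). Per1 (0.04, adjusted p = 0.676) and Klf9 (-0.23, adjusted p = 0.328) were not called with PGE2 in stimulated cells. Whether the glucocorticoid receptor or FOXO factors play a part in these changes was not tested. Cdkn1b, the neighbour of Tsc22d3 in pattern, is on this list, and the list was written with earlier results of these data known.

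**Figure D5:**
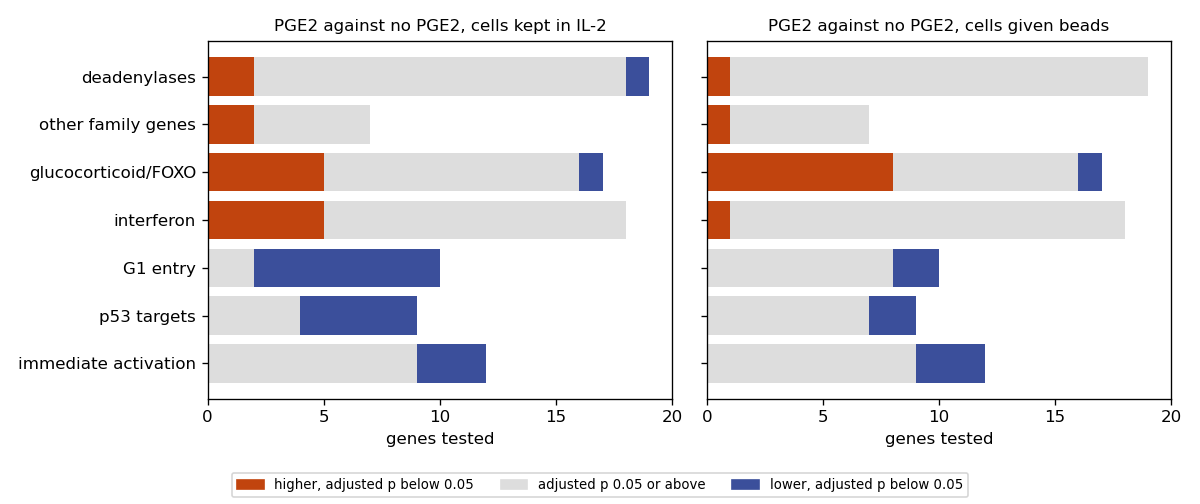
Number of genes in each list that were called higher (red), called lower (blue) or not called (grey) with PGE2, in unstimulated cells (left) and stimulated cells (right). Of 17 glucocorticoid and FOXO genes 8 are higher with PGE2 in stimulated cells, and of 10 G1 entry genes 8 are lower with PGE2 in unstimulated cells.

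Genes of G1 entry, several of which BTG and TOB proteins have been reported to hold down, were in most cases lower with PGE2 in unstimulated cells. There 8 of 10 were called lower and none higher (median -0.46), against 15.5% and 12.9% of all genes (median -0.001). Myc went from 137 ± 22.6 to 69.0 ± 13.7 CPM (-0.97, SE 0.14, adjusted p = 0.000422) and Cdk6 from 219 ± 18.4 to 139 ± 25.0 CPM (-0.64, SE 0.10, adjusted p = 0.000840). In stimulated cells E2f1 (-0.56, SE 0.12, adjusted p = 0.0174) and Cdk4 (-0.30, SE 0.06, adjusted p = 0.0194) were called lower and none higher. Stimulation called 4 higher and 4 lower, with and without PGE2. Whether these genes and the members are linked was not tested.

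Btg2 is also a p53 target, and other p53 targets were examined beside it. Whether p53 plays a part in the changes of Btg2 was not tested. Of 9 tested, 5 were called lower and none higher with PGE2 in unstimulated cells (median -0.32), among them Phlda3 (-0.58, SE 0.13, adjusted p = 0.00720) and the apoptosis gene Bbc3 (-0.49, SE 0.11, adjusted p = 0.00539). In stimulated cells 2 were called lower, Sesn2 (-0.43, adjusted p = 0.0478) and Bax (-0.25, adjusted p = 0.0365). Stimulation called 2 higher and 3 lower without PGE2 and 3 higher and 3 lower with it. Immediate activation genes, the class to which Btg2 belongs by its kinetics, were called higher by stimulation in 12 of 12 cases. This held without and with PGE2 (medians 3.08 and 2.69). Btg2 was called lower in both, and the cause of this difference was not tested. PGE2 called 3 of the 12 lower in each state: Egr2 (-1.04), Egr3 (-0.89) and Egr1 (-0.81) in stimulated cells and Egr3 (-1.07), Egr1 (-0.99) and Cd69 (-0.45) in unstimulated cells.

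Interferon-stimulated genes, which share inducers with the Schlafen genes, were called higher by stimulation in 15 of 18 cases without PGE2 (median 1.38) and 13 of 18 with it (median 0.96), and none was called lower. Among the Schlafen members, in the fits without the block, Slfn5 was called higher in both comparisons and Slfn1 in neither. Slfn2 was called higher without PGE2 but not with it (0.42, adjusted p = 0.0820). Btg1, Btg3 and Tob2 were also called higher in both, so this direction was not particular to Schlafen genes. With PGE2, 5 of 18 were called higher in unstimulated cells, led by Irf7 (0.90, SE 0.09, adjusted p = 3.14e-05) and Rtp4 (0.68, SE 0.16, adjusted p = 0.00844), and Zbp1 alone in stimulated cells (0.48, SE 0.11, adjusted p = 0.0265). In the interaction, Per1 (-0.45, adjusted p = 0.0125) and Klf2 (0.83, adjusted p = 0.0391) of the glucocorticoid and FOXO list were the only genes called on any of the 7 lists.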

How the data were processed

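Libraries of 16 cultures were grouped by treatment label. Per the labels, libraries were poly(A)-selected and made with the NEBNext Ultra kit. The authors' processing notes name HISAT2 2.0.5, featureCounts 1.5.0-p3 and DESeq2 1.20.0 and the mouse build GRCm38. The deposited counts are whole, unnormalized read counts per gene, and the deposited FPKM values, also made by the authors, are scaled by gene length and library size. The use of strand in counting was not given in the sources used here, so reads of overlapping antisense genes cannot be told apart. Counts were tested with edgeR 4.0.16 in R 4.3.3 (filterByExpr with a minimum count of 10, TMM, glmQLFit and glmQLFTest, two-sided), each pairwise comparison in a fit of its own 8 libraries and the interaction in a fit of all 16, with Benjamini-Hochberg adjustment over all genes tested. A gene was called at an adjusted p under 0.05. The test recovered known changes of 2-fold in data simulated for the pairwise comparisons, with libraries drawn independently of each other. That check does not cover the smaller changes with PGE2 reported here. SE is the log2 fold change divided by the square root of F. The genes closest in pattern to Btg1 are not reported here. FPKM was used to compare levels between genes and, as log2(FPKM + 1) and log2(FPKM + 0.1) with limma 3.58.1, as an alternative. DESeq2 1.42.0 was another. Totals of 22678254 to 42950763 counts per library gave the members 19 to 23596 counts each, so that counting error weighs most on Slfn5. Replicates of a group differed by more than counting noise. What same-numbered replicates share was not stated, and p-values measure the spread between these cultures. The deviations of same-numbered libraries from their group means correlated at 0.190 to 0.423 for PGE2 in stimulated cells. The correlations were 0.137 to 0.444 for PGE2 in unstimulated cells and 0.112 to 0.359 for stimulation without PGE2. Each was above the highest correlation with a library of another number, except replicate 2 for PGE2 in stimulated cells (0.190 against 0.247). The numbers were taken to pair those libraries from the data, and blocked values are given for members where a call changed. Genes of the lists are reported from the fits without the block alone, so their calls could differ with it. Pairwise comparisons that share a group are not independent, and the 2 PGE2 comparisons may be linked through same-numbered replicates. All 9 members are named. From the lists, the 2 genes that rose most and the 2 that fell most in either PGE2 comparison could be named, and genes like a member were the 3 with the smallest rms difference. Klf2 in the interaction and Klf9 were named after their values were seen. The members, gene lists and motifs were chosen with earlier results of these data known, and motif searches used letters alone. Promoters are from RefSeq on GRCm38.p6.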

Additional observations from a re-analysis of the deposited data

Results flagged for a closer look

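Btg2 was looked at again because its response to PGE2 differed between the 2 states by a test of the difference itself: the response in stimulated cells minus that in unstimulated cells was -0.58 (adjusted p = 0.0415, edgeR interaction over 16 libraries). In 2 of 36 combinations of member and group, a single library stood far from the other 3 by Dixon's gap, which chance alone gives in about 1 of 20 groups. Tob2 was at 74.1 CPM in replicate 1 of unstimulated cells with PGE2, against 56.0 to 57.3 CPM in the other replicates. Btg3 was at 21.0 CPM in replicate 4 of unstimulated cells without PGE2, against 18.7 to 18.9 CPM in the others. Without that Tob2 library, the call for Tob2 on stimulation with PGE2 was kept, and without that Btg3 library the call for Btg3 on stimulation without PGE2 was kept. For PGE2 in unstimulated cells, the change of Tob2 ran from 0.055 to 0.20 when libraries were left out in turn, and it was never called. The blocked call for Tob2 in that comparison was not repeated without the library that stood apart.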

How the results depend on the processing

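Of 863 log2 fold changes of single members under an alternative, 762 kept their direction and their side of the threshold, 47 lost and 34 gained a call, and 20 changed sign, none of which was a called change. The counts of called members, 1 for PGE2 in stimulated cells, 4 for PGE2 in unstimulated cells, 8 and 7 for stimulation without and with PGE2 and 1 in the interaction, moved as follows, and the cause was not tested. For PGE2 in stimulated cells the count was 5 with DESeq2, 4 in 1 fit of all samples, 3 with no filter on low counts and 2 with upper-quartile factors or with limma on log2(FPKM + 1) or log2(FPKM + 0.1). For PGE2 in unstimulated cells it was 2 with limma on log2(FPKM + 1) and no filter and 2 in 1 fit of all samples. With a fold change of at least 2 it was 0 for PGE2 in unstimulated cells, 4 for each stimulation comparison and 0 for the interaction. The interaction count was 2 with DESeq2 and with no filter and 0 in the 3 limma fits. Without 1 library, the counts ranged from 1 to 2 for PGE2 in stimulated cells, 3 to 4 for PGE2 in unstimulated cells, 7 to 9 and 5 to 8 for stimulation without and with PGE2, and 0 to 1 in the interaction.

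With the replicate block, the count was 6 for PGE2 in stimulated and in unstimulated cells alike, 9 and 8 for stimulation without and with PGE2 (with it, Slfn2 was added at 0.38, adjusted p = 0.0142) and 2 in the interaction (Btg2 and Slfn2, both lower). Same-numbered libraries correlated at 0.0439 to 0.281 for stimulation with PGE2, where the numbers were not taken as pairs. Over all genes, the block called 2662 higher and 2882 lower for PGE2 in stimulated cells, against 841 and 529 without it, 3428 and 3510 against 1869 and 2253 in unstimulated cells, and 270 and 138 against 78 and 35 in the interaction.

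Tsc22d3 was called for PGE2 in stimulated cells under all 18 alternatives (1.04 to 1.41) and in unstimulated cells under 17 of 18, the exception being 1 fit of all samples (0.35, adjusted p = 0.159). The changes of sign outside the leave-one-out fits were those of Btg3 with PGE2 in unstimulated cells, at 0.00388 with DESeq2, 0.00488 with RLE factors and 0.00433 with upper-quartile factors. Without 1 library, changes that were not called ran from -0.035 to 0.18 for Btg1 with PGE2 in stimulated cells, from -0.038 to 0.035 for Btg3, -0.016 to 0.13 for Slfn2 and -0.16 to 0.27 for Slfn5 with PGE2 in unstimulated cells, and from -0.20 to 0.022 for Btg1, -0.097 to 0.083 for Tob2 and -0.035 to 0.13 for Slfn1 in the interaction. Upper-quartile factors shifted the median log2 change of all genes to -0.13 for both stimulation comparisons, from -0.03 and 0.002. In the interaction, limma with log2(FPKM + 1) gave 16 genes higher and 27 lower, with log2(FPKM + 0.1) 27 and 26, and with no filter 11 and 26. DESeq2 called 1178 genes higher and 888 lower for PGE2 in stimulated cells and 153 and 81 in the interaction, and limma without a filter 431 and 248 for PGE2 in stimulated cells. Depth limits Slfn5 in particular.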

Other observations

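Btg1 and Slfn2 were highest in replicate 1 and lowest in replicate 4 in each of the 4 groups, at 380.2 and 252 CPM for Btg1 and 316 and 233 CPM for Slfn2 in unstimulated cells without PGE2. In stimulated cells Tsc22d3 went the other way, being lower in replicates 1 and 2 (14.1 and 12.2 CPM) than in replicates 3 and 4 (19.9 and 23.5 CPM), and the same held with PGE2 (32.2 and 31.2 against 48.5 and 50.3 CPM). These are differences between numbered cultures whose source is not stated.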
